A study of Homo sapiens with 12 samples.

Results

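The transcripts of the cytosolic ribosomal proteins were followed in 2 human clear cell renal cell carcinoma (ccRCC) cell lines and their sunitinib-resistant derivatives. The list was chosen by name alone, from symbols made of RPL or RPS and a number with an optional letter suffix, together with RPLP0, RPLP1, RPLP2 and RPSA, and without pseudogenes, the RPS6K kinases and RPS4Y genes. It held 85 of the 45478 genes in the count table, of which 46 encode large subunit proteins, 31 small subunit proteins and 8 are paralogues whose symbol carries L, L1 or AL after the number of a parent gene. After the filter on low counts 83 were tested, and 71 had a mean above 100 CPM (counts scaled by TMM-normalized library size). mRNA had been sequenced from 4 groups of 3 replicate libraries. Parental 786-O and parental A498, both established from renal carcinoma, were labelled with no treatment and no drug resistance. All 12 libraries carry the treatment label none, while the code in each library name holds the letters veh, which the labels do not explain. Sunitinib is an inhibitor of receptor tyrosine kinases used against this cancer. Sunitinib-resistant 786-O, here resistant 786-O, had been selected with 4 µM of it and sunitinib-resistant A498, here resistant A498, with 2 µM, over 4 months or more than 20 passages, and 786-O or A498 alone stands for the parental line. Each resistant line was a single selected culture, and no source used here says that the replicates of a group were separate cultures, so that the p-values measure the spread between these libraries, which may be technical.

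The cytosolic ribosome is built from ribosomal RNA and a fixed set of proteins, most of them present once in each particle. The small subunit reads the mRNA, the large subunit joins the amino acids, and a stalk of P proteins on the large subunit recruits the translation factors. In mammals most mRNAs of ribosomal proteins begin with a 5′ terminal oligopyrimidine (TOP) tract, a C at the first base followed by further C or T bases, through which mTOR signalling and the LARP1 protein control their translation and stability. Several of the proteins also act outside the ribosome, such as RPL5 and RPL11, which bind the ubiquitin ligase MDM2.

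The tract can be read at the annotated starts. The windows printed here hold the 20 bases before and the 10 bases from the first annotated base, on the gene's own strand, taken from RefSeq promoters of GRCh38.p14, and are shown because the members named in them carry the largest changes or the best known roles. Capitals mark the unbroken run of C and T that begins with a C at the first base, and the last 2 windows hold no such run.
RPLP0, chr12:120201102-120201131, minus strand: ggcacgcgcgggcgcgaggcCCTTCTCTCg
RPSA, chr3:39406700-39406729, plus strand: cgtcatttcctgccgcctgtCTTTTCCgtg
RPS6, chr9:19380227-19380256, minus strand: gcgctaagcggaagttggccCTCTTTTCCg
RPL22, chr1:6199586-6199615, minus strand: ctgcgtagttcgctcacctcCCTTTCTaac
RPL22L1, chr3:170870186-170870215, minus strand: gaccgcgcggccgtagcttcCTCTCTgctc
RPL28, chr19:55385912-55385941, plus strand: tcgcctcgcccctcgccttcCTCTTTCCgt
RPS23, chr5:82278345-82278374, minus strand: ctccttcctgcggtgcttctCTCTTTCgct
RPL21, chr13:27251538-27251567, plus strand: cgccgcggccccgcctctttCCTTTCggcc
RPS26, chr12:56041898-56041927, plus strand: gctgggagacacataacctcgattttcttc
RPS4X, chrX:72277239-72277268, minus strand: cgcgcgcagtctccagccccaatttctacg
A C at the first base followed by 4 bases that are each C or T was found in 47 of the 84 promoters listed for the members (55.95%), against 1429 of all 35116 promoters (4.069%). By gene, 47 of the 68 members with a listed promoter had it (69.12%), against 5.142% of 27305 genes, and 17 members were not matched. Only the gene's own strand and this one position were searched. The match describes the annotated start, which can lie some bases from the start used in these cells.

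Total counts were 20042519 to 47972092 per library. Since the batch characteristic in the labels is different for every group and the same within each, the effects of batch and of selection cannot be told apart. The libraries labelled resistant A498 lay nearer to both 786-O groups than to their labelled parent. Over 19929 genes the median correlation of log2 CPM between libraries was 0.910 for resistant A498 with A498, 0.965 for it with 786-O and 0.988 for it with resistant 786-O, and 0.966 within the 786-O pair. These correlations are across genes, which are not independent replicates. For this reason the libraries labelled resistant A498 are compared below with A498 and, beside it, with 786-O. Of 10 markers of renal tubule and ccRCC, all were above 3 counts in A498 and 9 in each of the other groups, where CA9, a hypoxia target, was at the floor. Of 17 T cell markers, fixed because the study also cultured T cells, the summed level was 0.372 to 1.20 CPM per library and CD3D, CD3E and CD3G were at or under 3 counts throughout. In some library 6 of the 17 held more than 3 counts, with a maximum of 26. Of these CD8A alone passed the filter, and it was called higher in both resistant lines, with 0.458 to 0.547 CPM in resistant 786-O against 0.104 to 0.133 CPM in 786-O (adjusted p = 4e-05) and 0.274 to 0.336 CPM in resistant A498 against 0 in A498 (adjusted p = 1.1e-05).

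Ribosomal protein transcripts took the largest share of the counts in 786-O and a smaller one in both resistant lines. The share was 4.91% ± 0.0628 (SD, n = 3) in 786-O and 4.19% ± 0.0750 in A498, against 3.52% ± 0.0591 in resistant A498 and 3.43% ± 0.151 in resistant 786-O. The 786-O libraries lay between 4.86% and 4.98% and those of A498 between 4.14% and 4.28%, above every resistant library, while the ranges of resistant A498 and resistant 786-O overlapped. Counts on genes of the mitochondrial genome took 1.68%, 2.47%, 1.67% and 2.49% of the counts, with the groups in that order. With them left out of the total the shares of the ribosomal protein genes were 5.00%, 4.30%, 3.58% and 3.52%, in the same order. Because bulk RNA was measured, fewer cells with such transcripts and less of them per cell cannot be told apart, and a share says nothing of the total RNA of a cell.

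**Figure D1:**
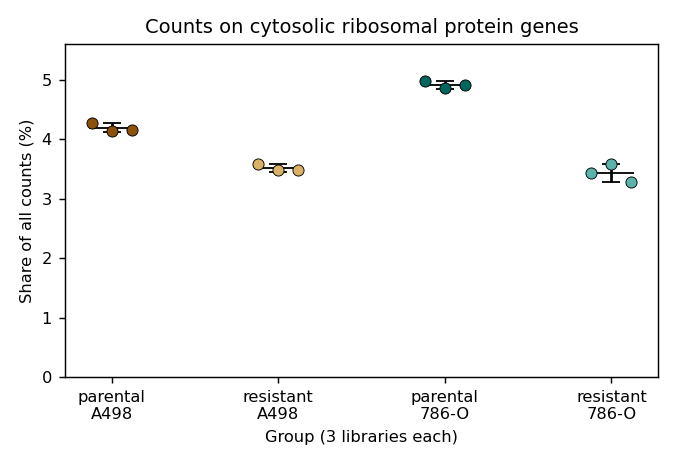
Share of all counts (%, linear axis from 0) on the 85 ribosomal protein genes in each of the 12 libraries. Points are libraries, horizontal bars the group mean and whiskers the SD of 3 libraries. The 786-O libraries sit highest, at 4.86% to 4.98%, and the resistant libraries at 3.28% to 3.58%.

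The lower share was spread over nearly the whole list. In resistant against parental 786-O, 79 of 83 members fell (edgeR quasi-likelihood test, adjusted p under 0.05), where 33.5% of all genes tested did. The 79 include RPL39L, which held 2 counts in each 786-O library and 0 in each resistant one and lost its call on thinning to the smallest library (adjusted p = 0.28). RPL36A alone rose, where 35% of all genes did, and 3 members, RPL22L1 and RPL17 among them, were not called. The median log2 fold change of the members was -0.67, against 0.03 over all genes. Both subunits shared in it. Of the large subunit genes 44 of 46 fell, with a median of -0.65, and of the small subunit genes 30 of 31 fell, with a median of -0.70. The quartiles of the members' log2 fold changes, -0.82 and -0.52, both lay below the lower quartile of all genes, which was -0.39. In 79 members every resistant 786-O library was below every 786-O library, where 34.4% of all genes showed this.

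**Figure D2:**
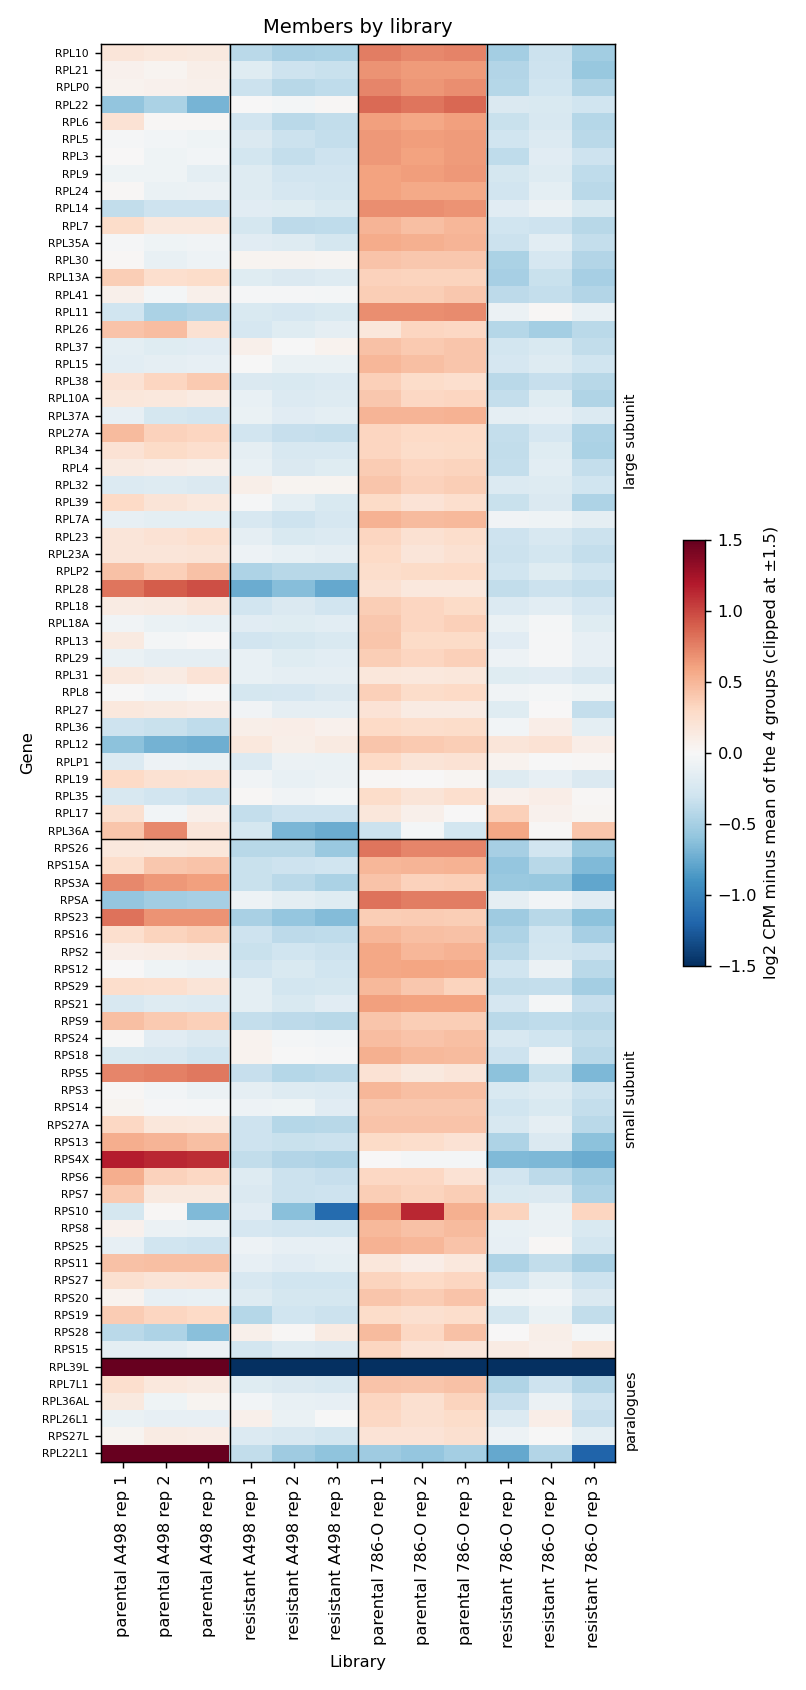
Level of 82 of the 83 tested members (rows, by class and by change in resistant 786-O) in each of the 12 libraries (columns), as log2 CPM minus the mean of the 4 group means, in colour from -1.5 (blue) to 1.5 (red), beyond which values are clipped. The 786-O columns are red in nearly every row and were the highest group for 63 members, while RPL22L1, RPL39L and RPS4X are red in A498. The highest group was not counted over all genes.

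RPS26, a small subunit protein at the exit of the mRNA channel, fell furthest in resistant 786-O among the members of at least 5 CPM. Its level was 276, 262 and 262 CPM in the 786-O libraries and 112, 129 and 106 CPM in those of resistant 786-O. The groups did not overlap, and its log2 fold change was -1.20 (SE 0.06, adjusted p = 5.1e-10), which left 43.5% of the 786-O level. RPL10, which completes the large subunit near the peptidyl transferase centre (chrX:154389955-154409168 in GRCh38), stood at 1303, 1264 and 1281 CPM in 786-O and at 539, 613 and 536 CPM in resistant 786-O, a log2 fold change of -1.19 (SE 0.05, adjusted p = 5.2e-11). RPL21 fell by 1.09 on the log2 scale (SE 0.06, adjusted p = 6.4e-10), from 273 to 279 CPM to 118 to 142 CPM. These 3 genes and the 2 that followed, RPLP0 and RPL22, were at 43.5% to 47.2% of their 786-O level.

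The stalk proteins fell by unlike amounts. RPLP0, the base of the stalk, was at 1950, 1846 and 1894 CPM in 786-O and at 871, 951 and 856 CPM in resistant 786-O, a log2 fold change of -1.09 (SE 0.05, adjusted p = 5.3e-11). RPLP2, which pairs with RPLP1 on that base, went from 412 to 423 CPM to 280 to 304 CPM, a log2 fold change of -0.54 (SE 0.04, adjusted p = 4.5e-08). RPLP1 went from 932 to 1004 CPM to 808 to 843 CPM, a log2 fold change of -0.22 (SE 0.05, adjusted p = 0.00097), but with scaling by library size alone it was -0.08 and not called (adjusted p = 0.17). All 3 had no overlap between the groups by TMM-scaled CPM, with RPLP1 at 85.8% and RPLP0 at 47.1% of the 786-O level, and the difference between them was not tested.

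Members with known roles, in the ribosome or beyond it, moved in the same direction. RPL5 was at 947, 926 and 935 CPM in 786-O and at 491, 523 and 453 CPM in resistant 786-O, a log2 fold change of -0.94 (SE 0.05, adjusted p = 9.1e-10). RPL11 was at 714 to 721 CPM and at 408 to 447 CPM, a log2 fold change of -0.76 (SE 0.05, adjusted p = 4.7e-09). RPSA, which is also known as a laminin receptor, was at 1332, 1287 and 1289 CPM and at 685, 734 and 671 CPM, a log2 fold change of -0.90 (SE 0.05, adjusted p = 2.9e-10). RPS6, the substrate of S6 kinase, fell by 0.67, as did RPL10A, and RPS3, a protein of the mRNA entry site, fell by 0.72. RPL13A, known for its part in interferon-induced translational silencing, fell by 0.78. RPS27A, made as a fusion with ubiquitin, fell by 0.68, and RPS19, which is mutated in Diamond-Blackfan anaemia, fell by 0.50. RPL38, required for the translation of homeobox mRNAs, fell by 0.68, and RPL41, which encodes a very short peptide, fell by 0.78. RPS4X, the X-linked copy of a small subunit protein, fell by 0.68 and RPS23, of the decoding centre, by 0.89.

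In each group 1 of the 3 libraries was the highest for most members, with the largest deviations in resistant 786-O. There replicate 2 was the highest of the 3 for 68 of 83 members and replicate 3 the lowest for 69, with median log2 deviations from the other libraries of 0.11 and -0.10. Replicate 1 was the highest for 64 members in resistant A498, 60 in 786-O and 53 in A498, with median deviations of 0.06, 0.03 and 0.04. The same count over all genes was not made, so these deviations are not shown to be particular to the members. The median coefficient of variation of a member was 5.67% in resistant 786-O and 1.90% to 3.08% in the other groups. With each library left out in turn, 77 to 79 members were called lower. Without replicate 2 of resistant 786-O the members called higher numbered 2 in place of 1, RPL36A among them.

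For resistant A498 the counts depended on the reference. In resistant against parental A498, 58 of 83 members fell, where 36.4% of all genes did, 12 rose, where 36.3% did, and 13 were not called. The median log2 fold change of the members was -0.32, against -0.0041 over all genes. In resistant A498 against parental 786-O, 80 members fell, where 32.1% of all genes did, and RPL22L1, RPL36A and RPL39L were not called. The median there was -0.59. The 2 comparisons share the resistant A498 libraries. Of the large subunit genes 31 of 46 fell and 8 rose against A498, with a median of -0.28, and of the small subunit genes 23 of 31 fell and 4 rose, with a median of -0.49. Against 786-O the counts of lower genes were 45 of 46 and 31 of 31, with medians of -0.53 and -0.64.

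RPL28, a large subunit protein, fell most against A498 apart from the paralogues RPL39L and RPL22L1. It was at 686, 741 and 771 CPM in A498 and at 235, 254 and 231 CPM in resistant A498, a log2 fold change of -1.61 (SE 0.05, adjusted p = 7.1e-13). RPS4X was at 1741, 1686 and 1656 CPM and at 597, 567 and 561 CPM, a log2 fold change of -1.56 (SE 0.04, adjusted p = 8.9e-14). RPS23 was at 489, 446 and 444 CPM and at 199, 187 and 178 CPM, a log2 fold change of -1.29 (SE 0.06, adjusted p = 3.7e-11). In all 3 the groups were far apart, and against 786-O the same genes differed by -0.90, -0.40 and -0.94. RPLP2 fell by 0.85 (SE 0.04, adjusted p = 1.6e-10), RPLP0 by 0.43 (SE 0.05, adjusted p = 6.8e-07), and RPLP1 had a log2 fold change of -0.00 (SE 0.05, adjusted p = 0.94). RPS6 fell by 0.69, RPS19 by 0.68 and RPS27A by 0.59, while RPL41 had a log2 fold change of -0.06 (SE 0.04, adjusted p = 0.20).

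Among the 12 that rose against A498 were members that A498 held below the other groups. RPSA was at 506, 524 and 533 CPM in A498 and at 714, 679 and 666 CPM in resistant A498, a log2 fold change of 0.40 (SE 0.05, adjusted p = 1.4e-06). RPL11 had a log2 fold change of 0.17 (SE 0.05, adjusted p = 0.0079), with 317 to 359 CPM and 372 to 378 CPM. RPL12, chosen after its values were seen as the largest rise, went from 518 to 559 CPM to 910 to 961 CPM, a log2 fold change of 0.81 (SE 0.05, adjusted p = 4e-10). Against 786-O these 3 genes were lower, by 0.92, 0.93 and 0.27 on the log2 scale.

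**Figure D3:**
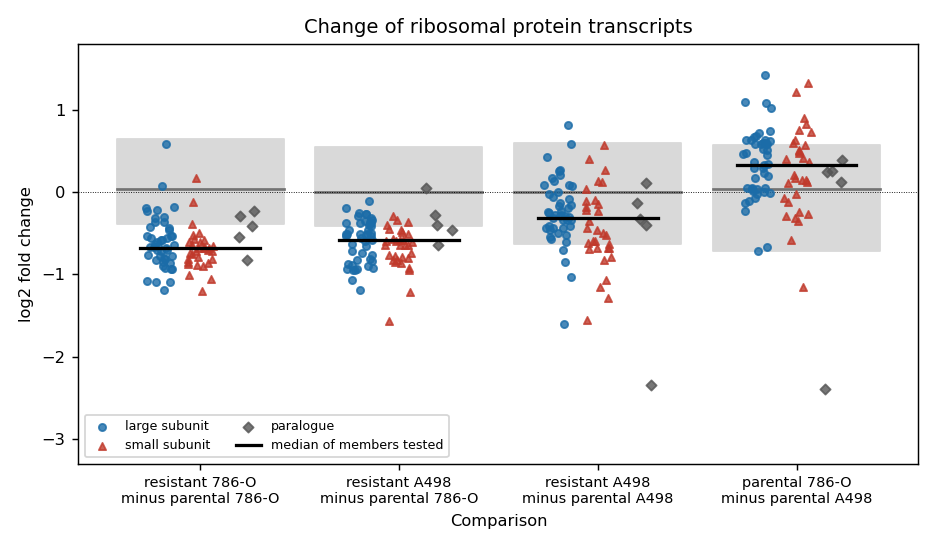
Log2 fold change (vertical axis) of each tested member except RPL39L in 4 comparisons, with large subunit genes as circles, small subunit genes as triangles and paralogues as diamonds. Black lines are the median of the members tested, and grey bands and lines the quartiles and median of all 19929 genes. The medians of the members are -0.67, -0.59, -0.32 and 0.33 from left to right.

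The parental lines themselves differed. In 786-O against A498, 54 members were higher, where 38.2% of all genes were, 13 were lower, where 36.1% were, and the median log2 fold change was 0.33. Besides the paralogues, the largest differences among members of at least 5 CPM were those of RPL22 (log2 fold change 1.43, SE 0.05, adjusted p = 3.4e-12), RPSA (1.32, SE 0.05, adjusted p = 1.2e-12) and RPS4X (-1.15, SE 0.04, adjusted p = 1.9e-12). RPL11 was higher in 786-O by 1.10 and RPL28 lower by 0.71. RPL13A, RPL38, RPL39, RPS6, RPS19, RPS27 and RPL26 were not called, with log2 fold changes of -0.12 to 0.11, by the main test. All of them but RPS27 were called once the trend with GC content and length was removed, with RPL13A at 0.30, RPL38 at 0.12 and RPS19 at 0.32, and RPL26 at -0.28, RPL39 at -0.23 and RPS6 at -0.25. RPS19 was called in the other direction with scaling by library size alone (-0.16), with at least 10 counts in every library (-0.14) and with the 2 groups fitted alone (-0.12). RPS6 and RPL26 were called lower in these settings too, both at -0.20 with library size. RPS27 was called in 6 other settings, at 0.16 with no filter. By group means, 786-O was highest for 63 members, A498 for 19 and resistant 786-O for 1, and the lowest group was resistant 786-O for 44, resistant A498 for 27 and A498 for 12. The order of the groups was not counted over all genes. Between the means of resistant A498 and resistant 786-O the median absolute log2 difference of a member was 0.13, against 0.34 between resistant A498 and A498 and 0.68 between resistant 786-O and 786-O.

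A498 stood apart in a pair of paralogues. RPL22, a large subunit protein that also binds RNA outside the ribosome, was at 35.8, 38.8 and 33.4 CPM in A498, 54.2, 53.0 and 54.6 CPM in resistant A498, 97.2, 94.5 and 98.5 CPM in 786-O and 46.6, 46.1 and 44.1 CPM in resistant 786-O. Its paralogue RPL22L1, which RPL22 is known to repress, was at 170, 157 and 143 CPM in A498, 33.7, 30.0 and 28.7 CPM in resistant A498, 29.9, 29.1 and 30.6 CPM in 786-O and 25.5, 32.2 and 18.9 CPM in resistant 786-O. RPL22 was thus lowest where RPL22L1 was highest, and no other group overlapped with A498 for either gene. RPL22L1 fell by 2.34 on the log2 scale in resistant against parental A498 (SE 0.14, adjusted p = 5.9e-10) and RPL22 rose by 0.58 (SE 0.06, adjusted p = 1.6e-07). In resistant against parental 786-O, RPL22 fell by 1.08 (SE 0.05, adjusted p = 1.8e-10), and RPL22L1 had a log2 fold change of -0.23 (SE 0.13, adjusted p = 0.14). Without replicate 2 of resistant 786-O the latter was -0.43 and was called (adjusted p = 1.52e-05), as it was with no filter on low counts (adjusted p = 0.00365). The ratio of RPL22L1 to RPL22 counts, which is not corrected for gene length and is compared between groups only, was 4.35 ± 0.368 in A498, 0.571 ± 0.0489 in resistant A498, 0.309 ± 0.00174 in 786-O and 0.558 ± 0.134 in resistant 786-O (SD, n = 3).

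RPL39L, a paralogue of RPL39 best known from the testis (chr3:187120948-187180908 in GRCh38), was above the floor in A498 alone, where its libraries held 37.6, 37.7 and 39.2 CPM. In the other groups no library held more than 2 counts of it. At a floor of 3 counts per library it was at least 307-fold lower in resistant A498 and at least 513-fold lower in 786-O. No fold is given between the groups of 786-O cells, both of which were at the floor. Its parent RPL39, a small protein of the exit tunnel, was at 328 to 360 CPM in A498 and at 251 to 290 CPM in resistant A498, a log2 fold change of -0.34 (SE 0.06, adjusted p = 0.00022), and fell by 0.59 in resistant 786-O. RPL10L was listed at 0 counts in every library and RPL3L at no more than 22 counts, and neither passed the filter. The parent RPL3 fell by 0.92 in resistant 786-O and by 0.28 in resistant against parental A498. The latter was -0.04 and not called with the trend with GC content and length removed (adjusted p = 0.508).

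The other paralogues are given beside their parents. RPL7L1, which acts in ribosome assembly, fell by 0.83 in resistant 786-O, as did RPL7 itself, and by 0.40 in resistant against parental A498, where RPL7 fell by 0.54. RPS27L fell by 0.29 in resistant 786-O (SE 0.05, adjusted p = 5.6e-05) and by 0.33 in resistant against parental A498, and RPS27 by 0.57 and 0.49. RPL36AL fell by 0.55 in resistant 786-O, and its log2 fold change was -0.14 in resistant against parental A498 (SE 0.07, adjusted p = 0.093). The latter was called in 5 alternatives, at -0.33 with the trend with GC content and length removed (adjusted p = 0.000552). Its parent RPL36A, a gene of few counts, differed by 0.59 in resistant 786-O and by -1.03 in resistant against parental A498. RPL26L1 fell by 0.41 in resistant 786-O, with a log2 fold change of 0.11 in resistant against parental A498 (SE 0.09, adjusted p = 0.29), where RPL26 fell by 0.72 and 0.57.

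**Figure D4:**
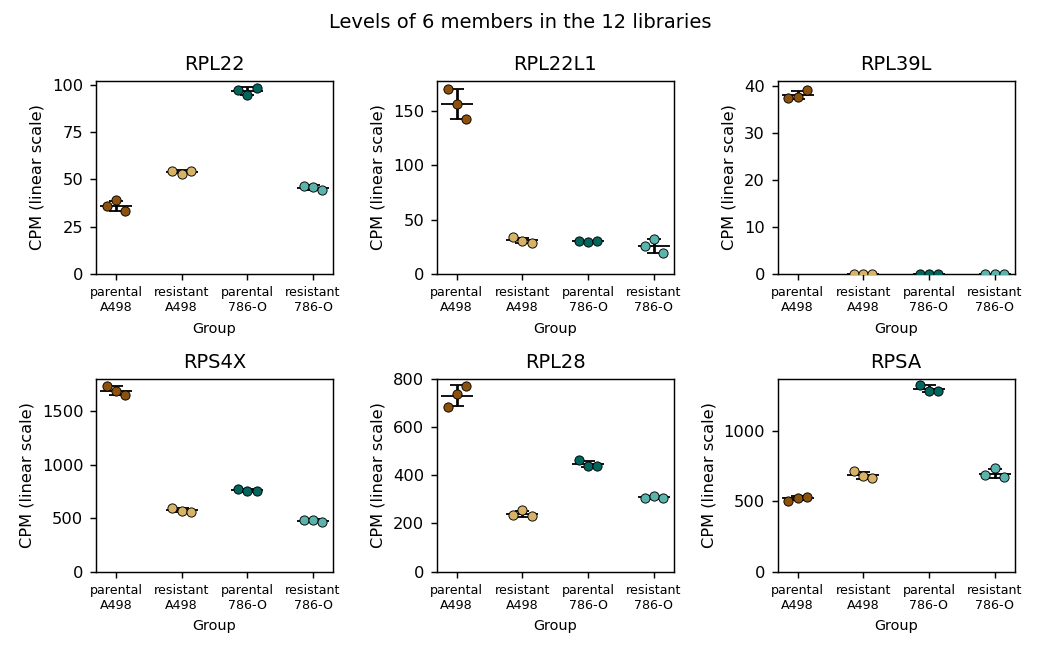
Levels (CPM, linear axes from 0) of RPL22, RPL22L1, RPL39L, RPS4X, RPL28 and RPSA in the 3 libraries of each group. Points are libraries, bars the mean and whiskers the SD. A498 is highest for RPL22L1, RPL39L, RPS4X and RPL28 and lowest for RPL22 and RPSA.

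Whether the 2 resistant lines moved alike was tested as the difference of their changes, resistant minus parental A498 less resistant minus parental 786-O. It was called for 52 members in the positive direction, where 33.9% of all genes were, and for 10 in the negative direction, where 34.4% were, with a median of 0.35. The resistant A498 change was thus less negative for most members. By its form the contrast equals 786-O minus A498 plus resistant A498 minus resistant 786-O. Members differed little between the resistant groups (median absolute log2 difference 0.13), and 786-O against A498 had a median of 0.33. For most members the contrast therefore largely repeats the parental difference and is not a separate result on the response to selection. RPL22 and RPSA were among the 52 and RPL22L1 among the 10.

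Some levels are uncertain. More than 40% of the canonical transcript was shared on the same strand with another annotated gene in 5 members, so that reads could be left uncounted. The share was 96.9% in RPL17, 84.0% in RPS10, 65.3% in RPL26 and 43.8% in RPL36A. RPL36A, the one member that rose in resistant 786-O, was at 1.82, 2.25 and 1.89 CPM in 786-O and at 3.49, 2.34 and 3.11 CPM in resistant 786-O, a log2 fold change of 0.59 (SE 0.18, adjusted p = 0.0094). With the counts of its pseudogenes added its direction turned, to -0.61. RPS10 had 319 counts over the 12 libraries. Without these 5 members, an alternative added after seeing the data, 77 of 78 fell in resistant 786-O. The members had 1129 processed pseudogene rows for 78 of the 85 genes, to which reads with near-identical sequence could be assigned. RPL30, chosen after its values were seen, had 272131 counts and its antisense gene 183704, and the counting was by strand. It was not the only such case. Genes overlapping on the opposite strand held 127091 counts beside RPL23A (180168), 99145 beside RPS3A (175851), 97878 beside RPS23 (123267) and 33383 beside RPL10 (346322). Whether any of these counts came from transcripts of the members was not tested.

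Other genes that serve the ribosome were also lower in resistant 786-O, where 33.5% of all genes tested fell. Of 24 genes for ribosomal proteins outside the naming rule, translation factors and other TOP mRNAs, 23 were tested and all 23 fell, with a median of -0.69. FAU, which encodes a ribosomal protein as a fusion, fell by 0.40, RACK1 of the small subunit by 0.65, the elongation factors EEF1A1 and EEF2 by 0.83 and 0.53, and NPM1, a nucleolar chaperone, by 1.10. EEF1G was not tested. Of 40 ribosome biogenesis genes 39 fell, with a median of -0.59, and POLR1C was not called. FBL, the methyltransferase of box C/D particles, was at 140 ± 2.95 CPM (SD, n = 3) in 786-O and 53.9 ± 5.86 CPM in resistant 786-O, a log2 fold change of -1.38 (SE 0.06, adjusted p = 7.2e-11), and GAR1, of box H/ACA particles, fell by 1.20. Of 14 chaperones and importers of ribosomal proteins 11 fell, with a median of -0.34, among them BCCIP by 1.06 and the importin IPO5 by 0.96, and GRWD1, IPO9 and AAR2 were not called.

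Against A498 the same lists were mixed in resistant A498, where 36.4% of all genes fell and 36.3% rose. Of the 23 TOP and ribosomal protein genes 16 fell and 2 rose, PABPC1 by 0.11 and SNHG1 by 0.24, with a median of -0.34. Of the biogenesis genes 24 fell and 6 rose, with a median of -0.29, and nucleolin (NCL) was among the latter with a log2 fold change of 0.37 (SE 0.06, adjusted p = 5.9e-05). Of the chaperones 10 fell and 2 rose, TSR2, the chaperone of RPS26, by 1.07 and PDCD2 by 0.32. Against 786-O, 23 of 23, 38 of 40 and 11 of 14 genes of the 3 lists were lower in resistant A498, where 32.1% of all genes were, with medians of -0.56, -0.79 and -0.43, and IPO9 was higher by 0.16 (SE 0.06, adjusted p = 0.025).

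Of 16 regulators of ribosome production and ribosome quality control, 9 fell in resistant 786-O, where 33.5% of all genes did. MYC, a transcriptional activator of ribosome genes, was at 116 ± 3.31 CPM (SD, n = 3) in 786-O and 85.9 ± 10.8 CPM in resistant 786-O, a log2 fold change of -0.44 (SE 0.07, adjusted p = 3.9e-05). MTOR had a log2 fold change of -0.01 (SE 0.06, adjusted p = 0.84), and MDM2 fell by 1.37 (SE 0.07, adjusted p = 1.7e-10). In resistant against parental A498, 7 fell and 5 rose, where 36.4% and 36.3% of all genes did. MTOR rose there by 1.01 (SE 0.06, adjusted p = 6.2e-10), MDM2 fell by 1.57, and against 786-O the values were -0.04 for MTOR and -0.84 for MDM2.

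**Figure D5:**
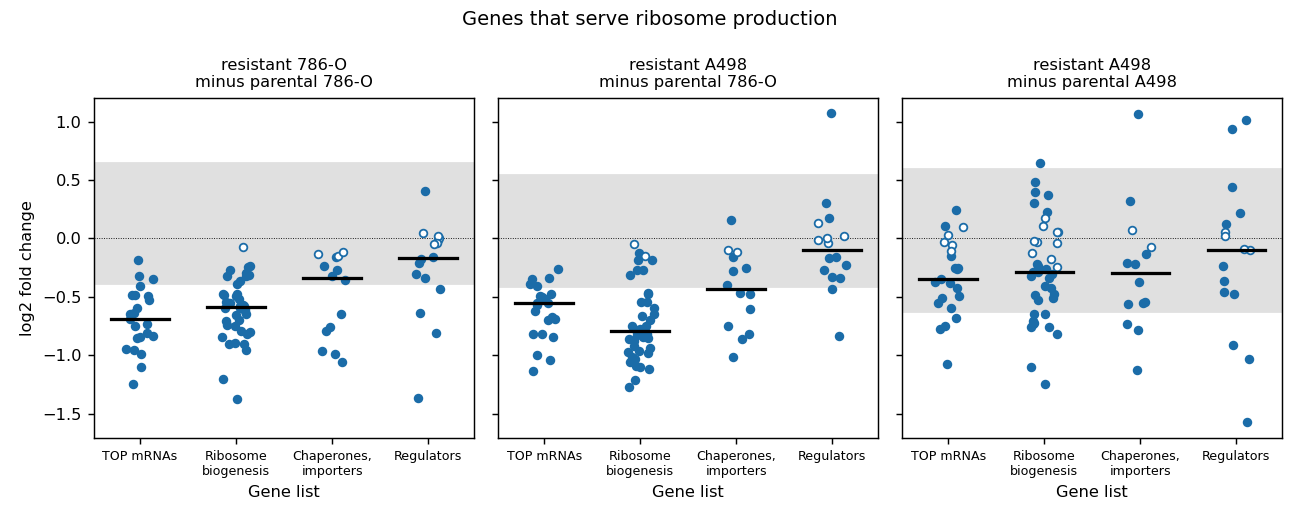
Log2 fold change (vertical axis) of the tested genes of 4 lists in 3 comparisons. Filled points passed an adjusted p of 0.05 and open points did not, black lines are list medians and the grey band is the quartile range of all genes. In resistant against parental 786-O the medians are -0.69, -0.59, -0.34 and -0.17 from left to right.

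Sequence properties of the genes were set beside the change in resistant 786-O. The median log2 fold change was -0.68 for the 47 members with the pyrimidine run at an annotated start and -0.65 for 20 without it. RPS26, whose annotated start lacks the run, fell most among members of at least 5 CPM, and RPL10, which has the run at an annotated start, next. Across 82 members Pearson's r of the change was 0.13 with GC content and -0.16 with log2 transcript length, given as a description since the members share their libraries. Outside the list, the genes whose log2 CPM followed the mean of 77 core members most closely over the 12 libraries, among 9973 genes of at least 10 CPM, were CALU (r = 0.997), a calcium-binding protein of the endoplasmic reticulum, RILPL2 (0.997), BCCIP (0.997), STRAP (0.996), a protein of the SMN complex, and RTCB (0.995), the tRNA ligase. CALU was at 1317 ± 7.72 CPM (SD, n = 3) in 786-O, 1052 ± 21.7 in A498, 840 ± 22.0 in resistant A498 and 844 ± 53.3 in resistant 786-O.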

How the data were processed

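The authors deposited raw gene counts for 12 libraries. According to the paper's methods and the submitters' processing notes, stranded mRNA libraries were demultiplexed with bcl2fastq 2.19.0, trimmed with Trimmomatic 0.36.6, aligned to GRCh38/hg38 with HISAT2 2.1.0 and counted over exons with featureCounts 1.6.3 by strand at a minimum mapping quality of 12, with GENCODE version 33. That quality minimum drops reads shared with pseudogenes. Symbols, positions and overlaps were taken by gene ID from GENCODE version 44 of the same assembly, for 45283 of 45478 genes.

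Counts were filtered with filterByExpr, normalized by TMM and fitted in R 4.3.3 with edgeR 4.0.16 as one quasi-likelihood model with 4 group means and a prior count of 0.125. Benjamini-Hochberg adjustment ran over the 19929 genes tested, with a threshold of 0.05, and the SE was taken as the log2 fold change over the root of F. The code was tested on simulated data for resistant against parental 786-O and recovered 192 of 200 genes changed 2-fold among 19211, with 7 false calls. A gene was called at the floor of a group where none of its libraries held more than 3 counts. Precision is given as the SD of 3 libraries. At the totals of 20042519 to 47972092 counts, depth limits mainly the lowest members, and a few calls of other members also changed on thinning.

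The members and lists were chosen with earlier results of these data known. Genes named are the paralogues with their parents, members with known roles, and the 5 called members with the largest log2 fold change in each of 3 comparisons among those of at least 5 CPM and no overlap, with the 5 genes most like the core members. Others are named as exceptions to a count or as examples of a list. Alternatives used DESeq2 1.42.0, limma 3.58.1 (for the GC content and length trend) and an unadjusted two-sample test of raw counts as the study's methods name it, and the closing section gives the rest. Python 3.11.15, pandas 2.3.3 and matplotlib 3.10.9 served for tables and plots. Results for some genes are not reported here.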

Additional observations from a re-analysis of the deposited data

Results flagged for a closer look

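The change in resistant against parental A498 differed from that in resistant against parental 786-O, by the test of the difference itself in edgeR, for 62 members. Of these, 52 were positive, where 33.9% of all genes were called, and 10 negative, where 34.4% were. Calls were thus common among all genes, and a call alone does not set a member apart. Among the paralogues, their parents and the members named for their roles or as the largest changes, 25 differed, 19 of them in the positive direction and 6 in the negative. The values are differences of 2 log2 fold changes and rest on 3 libraries a group. The negative ones were RPL22L1 at -2.12, RPL36A at -1.62, RPL28 at -1.07, RPS4X at -0.88, RPS23 at -0.40 and RPLP2 at -0.31. These are members that A498 held at a higher level than resistant A498 by more than the 786-O groups differed. The largest positive ones were RPL22 at 1.67 and RPSA at 1.30. RPL22 and RPSA fell in resistant 786-O and rose in resistant against parental A498. RPL11, at 0.93, had the same opposite directions. Of members named in the report for other reasons, RPL12 differed by 1.04, RPL30 by 0.89 and RPL17 by -0.51. Positive differences between 0.5 and 1 were those of RPL21 (0.75), RPL41 (0.72), RPL5 (0.68), RPLP0 (0.65), RPL3 (0.64), RPL10 (0.58), RPS26 (0.58), RPS3 (0.57) and RPL26L1 (0.52). The smaller ones were RPL7L1 (0.43), RPL36AL (0.41), RPL10A (0.35), RPL13A (0.29), RPL7 (0.29), RPL39 (0.24) and RPLP1 (0.22). RPL39 lost its call in 11 alternatives, among them the removal of the GC content and length trend (0.03, adjusted p = 0.80). RPLP1 lost it when libraries were scaled by size only (0.14, adjusted p = 0.0827) and with at least 10 counts in every library (0.13, adjusted p = 0.0942), and RPL36AL with the trend removed (0.15, adjusted p = 0.179). The libraries labelled resistant A498 lay nearer to the 786-O groups than to A498, and the part of this in the differences was not tested. By its form each difference also contains that of 786-O from A498, so it is not separate from the parental comparison. RPL7, RPLP2 and RPL36A turned direction under 1 alternative each, with values given further on.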

How the results depend on the processing

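A requirement of a log2 fold change over 1 left 8 members lower and 0 higher in resistant against parental 786-O, 8 and 0 in resistant against parental A498, in 786-O against A498 3 lower and 6 higher, in resistant A498 against parental 786-O 4 lower, and for the difference of the changes 3 negative and 4 positive. Members called higher in resistant 786-O were 2 with scaling by library size or with at least 10 counts in every library (RPL36A among them), and 0 with pseudogene counts added, without the 5 overlapped members or in the unadjusted test of raw counts. That test, which does not scale for depth, called 0 higher and 9 lower in resistant against parental A498 and 1 lower in 786-O against A498. The shares of all genes under these alternatives, the fold requirement included, were not counted. These counts therefore do not set the members apart from other genes.

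The medians of the members kept their sign. For the 786-O pair the median was -0.53 with scaling by library size, which moved the median of all genes to 0.18, -0.62 with the minimum of 10 counts, -0.82 with the GC content and length trend removed and -0.49 on raw counts. For the A498 pair it was -0.25 with library size, -0.28 without a filter and -0.50 on raw counts. In 786-O against A498 it was 0.25 with library size, 0.28 with DESeq2 size factors, 0.29 by DESeq2's Wald test, 0.37 without a filter, 0.26 with the minimum, 0.29 with the groups fitted alone, 0.36 with the trend removed, 0.29 after thinning, 0.36 without paralogues and 0.88 on raw counts. In resistant A498 against parental 786-O it was -0.44 with library size, where the median of all genes was 0.15, -0.55 with size factors, -0.56 by the Wald test, -0.53 with the minimum, -0.55 with the groups fitted alone, -0.64 with the trend removed, -0.56 after thinning and -1.32 on raw counts. For the difference of the changes it was 0.28 with library size, 0.31 with size factors, 0.40 without a filter, 0.27 with the minimum and 0.56 with the trend removed.

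With each library left out in turn, the medians were -0.70 to -0.60 in resistant against parental 786-O, -0.33 to -0.27 in resistant against parental A498, 0.29 to 0.34 in 786-O against A498, -0.60 to -0.55 in resistant A498 against parental 786-O and 0.32 to 0.40 for the difference, and 1 to 2 members were called higher in resistant 786-O. The shares with pseudogene counts added were 4.33% in A498, 3.64% in resistant A498 and 5.11% in 786-O, and without mitochondrial counts 4.30%, 3.58% and 5.00%.

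Of 3755 values of named members under an alternative, 3648 kept direction and side of the threshold, 43 lost the call, 53 gained it and 11 turned. With the trend removed, 786-O against A498 turned to 0.12 for RPL38, -0.23 for RPL39, 0.13 for RPLP2, 0.32 for RPS19 and -0.0083 for RPS27A, and the difference to -0.0052 for RPL7, 0.27 for RPLP2 and 0.43 for RPS19. With pseudogene counts RPL36A turned to -0.61 in resistant 786-O, 0.0788 in 786-O against A498 and 0.19 for the difference. The cause of these changes was not tested. With the replicate number as a block (replicate block), 78 members were lower in resistant 786-O and 58 in resistant against parental A498. Same-numbered libraries correlated at -0.09 to 0.04, so the numbers do not pair them. Low counts limit RPL39L, RPS10, RPL36A and RPL3L. On thinning to the smallest library some calls of members with more counts changed too. RPS27L in 786-O against A498 (0.08, adjusted p = 0.195) and RPL39 in the difference (0.21, adjusted p = 0.0518) lost the call. RPS19 in the difference gained it (-0.22, adjusted p = 0.0321).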
